A study of Drosophila melanogaster with 4 samples.

Results

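The Nimrod genes of *Drosophila melanogaster* encode proteins with NIM repeats, a form of the EGF-like repeat that in several family members binds bacteria or dying cells. The 9 genes described here are the secreted-type genes *NimB1*, *NimB2*, *NimB3*, *NimB4* and *NimB5* and the membrane receptor genes *NimC1*, *NimC2*, *NimC4* and *eater*. They were chosen by family name and with their levels in these same 4 libraries known. All 9 were matched by symbol among the 17023 genes listed in each count table. The family is best known from hemocytes, the blood cells of the fly. There the NimC proteins and Eater sit in the plasma membrane and take part in phagocytosis, whereas the NimB proteins lack a membrane anchor. The ovary is surrounded by hemolymph, so hemocytes attached to it can be dissected with it. Within the ovary, the family's relative Draper, encoded by *drpr*, acts in follicle cells that clear dying nurse cells.

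Poly(A) RNA came from ovaries of flies aged 2 to 3 days after eclosion. Every fly carried nosGAL4, which is active in germ cells, and UAS-Dcr2, which strengthens RNA interference. The flies carried a hairpin against either *bam*, which germline stem cell daughters need to differentiate, or *Nipped-A*, which encodes a scaffold protein shared by Tip60 and SAGA, complexes that acetylate histones. Each knockdown had 2 libraries, called the *bam* libraries and the *Nipped-A*-labelled libraries below, and no library without a hairpin was analysed here. A level in one group could only be read against the other. Both hairpins were driven in the germline, and hemocytes and other somatic cells were not the target of either. Separate dissections or cultures are not stated in the labels, so errors and p-values cover the spread between these libraries, which may be technical.

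The libraries held 21193517 to 47825006 counts, and 10245 genes had enough counts to be tested. *bam* was lower in the *bam* libraries, at 4.70 and 6.52 CPM (counts scaled to the size of the library, with TMM factors) against 29.0 and 16.9 CPM. *Nipped-A* went against its label, at 430 and 439 CPM in the *Nipped-A*-labelled libraries and 287 and 247 CPM in the others. Differences below therefore refer to libraries by their label only. Germ cell and follicle cell markers were present in all 4 libraries, with *bru1* at 165 to 880 CPM and *tj* at 164 to 256 CPM. Summed levels of markers of other tissues also differed between the groups. Across all genes tested, edgeR called 11.3% higher and 8.31% lower. Summed over 8 gut enzyme genes, all called higher, the level was 4.30 to 4.61 CPM in the *bam* libraries and 977 to 3300 CPM in the others. limma-voom called 2 of these 8 genes. Over 9 muscle sheath genes, 8 of them called lower, it was 26194 to 26240 CPM against 7606 to 9772 CPM. Over 10 fat body genes, with 3 called higher and 5 lower, it was 2549 to 2756 CPM against 4272 to 4609 CPM. The median log2 fold change of these genes was −2.35, with 6 below 0 and 4 above. Their higher sum came mainly from *Yp1* (1255 and 1513 CPM against 2281 and 2997 CPM) and *apolpp* (493 and 419 CPM against 1248 and 1317 CPM). *Fbp1* fell from 59.9 and 73.6 CPM to 0.753 and 0 CPM, and *Fbp2* from 31.2 and 24.0 CPM to 0.224 and 0 CPM. *Lsp1gamma* fell from 26.8 and 26.1 CPM to 0.631 and 0.750 CPM. The sum is therefore not a measure of fat body content. Over 9 follicle cell genes, with 2 called higher and 1 lower, the summed level was 3318 to 3396 CPM against 6486 to 6713 CPM. This higher sum came mainly from *dec* (617 and 602 CPM against 1819 and 1732 CPM) and *Yp3* (1407 and 1510 CPM against 3812 and 3390 CPM). Of the 9 genes, 4 had a log2 fold change below 0 and 5 above. Over 7 germ cell genes, with 5 called higher and 1 lower, the summed level was 1442 to 1544 CPM against 2540 to 3519 CPM. Whether these tissues had a part in the Nimrod values was not tested.

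The family has 10 genes in one cluster on chromosome 2L (dm6, 13957539 to 14048863, a span of 91.3 kb), 8 of them among the 9 genes described here. *NimA*, the first gene of the cluster, ends 125 bases before *NimB1* (2L, 13963507 to 13965088, plus strand). *NimB2* (13965012 to 13967018), *NimB3* (13967464 to 13967985) and *NimB4* (13968280 to 13969976) follow on the minus strand. *NimB5* (13970177 to 13972173) lies on the plus strand, *NimC1* (13973158 to 13976769) on the minus strand and *NimC2* (13980126 to 13983269) on the plus strand. *NimC4* (14047582 to 14048863) has a single exon and lies inside an intron of *nAChRalpha5*, on the same strand. *eater* is on chromosome 3R (27095867 to 27099679, minus strand). The annotated genes differ in size. The longest annotated proteins run from 122 residues for NimB3 through 315 to 448 for the other NimB proteins and 377 to 701 for NimC1, NimC2 and NimC4 to 1074 for Eater. Exons of opposite strands overlap between *NimB1* and *NimB2* over 77 bases, between *NimB5* and the hemocyte gene *He* over 78 bases and between *NimC2* and *rk* over 527 bases. The strand setting of the counting is not given in the sources used here, so a share of the counts of these 6 genes could belong to the overlapping partner.

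Each of the 9 Nimrod transcripts was lower in both *Nipped-A*-labelled libraries than in either *bam* library. The fitted fold differences ran from 2.12-fold for *eater* to 6.79-fold for *NimC2*, with a median of 3.53-fold. The median log2 fold change of the 9 was −1.82, and that of all genes tested was −0.0011. All 9 passed the filter on low counts. The 9 genes were chosen with results of this same comparison known, so their differences are given as a description, without a test. In the fit across all genes 8 of the 9 passed the adjusted threshold as lower, and *eater* did not, where 8.31% of all genes tested did so, 11.3% passed as higher and 19.6% in either direction. Lower levels without overlap between the groups were seen for 35.3% of all genes tested, higher levels without overlap for 33.6% and either for 68.9%, and a fitted difference of at least 2-fold downward for 11.4%. With each library left out in turn, the median log2 fold change of the 9 ran from −1.88 to −1.65. Together the 9 genes held 0.0413% and 0.0411% of all counts in the *bam* libraries and 0.0114% and 0.0140% in the others. In bulk ovary RNA, fewer cells of a type and less RNA per cell cannot be told apart.

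**Figure D1:**
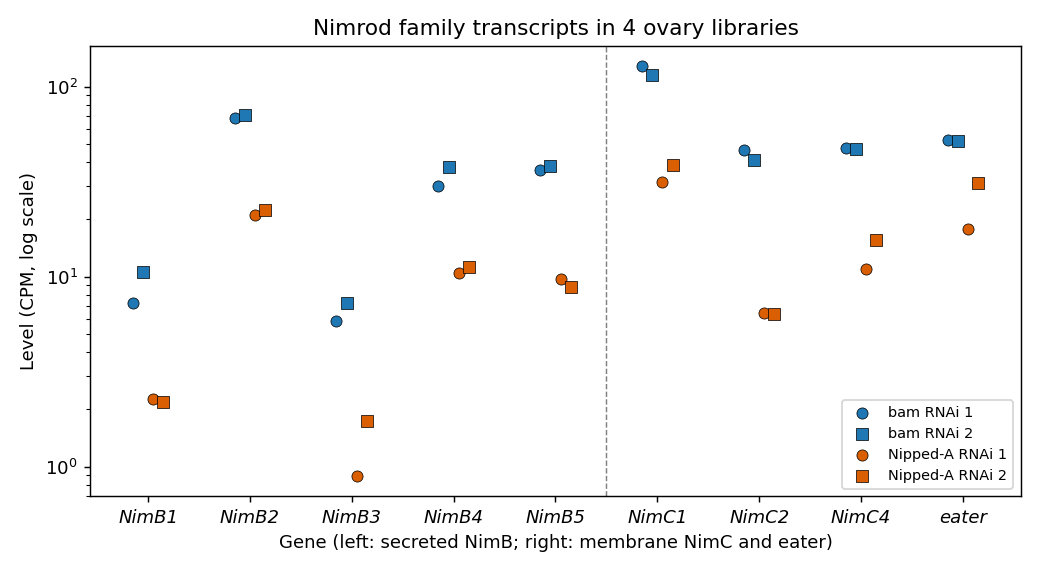
Level of each Nimrod transcript (CPM, log scale) in each of the 4 ovary libraries; each point is one library, with NimB genes left of the dashed line and membrane genes right of it. For all 9 genes both orange points (*Nipped-A*-labelled) lie below both blue points (*bam*), with the narrowest gap for *eater* and the widest for *NimC2*.

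Among the secreted-type genes, *NimB2* was the most abundant. It had 68.6 and 70.7 CPM in *bam* libraries 1 and 2 and 21.2 and 22.5 CPM in the *Nipped-A*-labelled libraries, or 69.6 ± 1.45 against 21.9 ± 0.939 (SD, n = 2). The libraries of each group were nearly level, and the fitted log2 fold change was −1.67 ± 0.17 (SE), a 3.18-fold lower value. *NimB5*, whose product is secreted by the larval fat body and adjusts hemocyte numbers to nutrition, had 36.2 and 38.2 CPM against 9.77 and 8.86 CPM. Its log2 fold change was −2.00 ± 0.21, or 3.99-fold lower. *NimB4*, which encodes a secreted factor needed for efficient clearance of apoptotic cells by hemocytes, had 30.1 and 37.8 CPM against 10.4 and 11.2 CPM. Its log2 fold change was −1.65 ± 0.23, or 3.13-fold lower, with a wider spread between the *bam* libraries than between the others.

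*NimB1* and *NimB3* were the members with the lowest counts. *NimB1* had 7.24 and 10.6 CPM in the *bam* libraries and 2.26 and 2.20 CPM in the *Nipped-A*-labelled ones, resting on 240, 249, 111 and 47 counts. Its log2 fold change was −2.00 ± 0.41. *NimB3*, the shortest gene of the group, had 5.85 and 7.25 CPM against 0.896 and 1.73 CPM, resting on 194, 170, 44 and 37 counts. Its log2 fold change of −2.33 ± 0.53 was the largest of the NimB genes and also the least precise. The *Nipped-A*-labelled libraries differed 1.94-fold from each other for *NimB3*. The fitted difference was 3.79-fold without library 1 and 6.96-fold without library 2.

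Among the membrane receptor genes, *NimC1* had the most counts. NimC1 is the plasmatocyte receptor after which the family's role in uptake of bacteria was described. It had 128 and 115 CPM in the *bam* libraries and 31.5 and 38.8 CPM in the *Nipped-A*-labelled ones, or 121 ± 9.16 against 35.2 ± 5.17 (SD, n = 2). The log2 fold change was −1.78 ± 0.18, or 3.45-fold lower. *NimC4*, also called *simu*, encodes a receptor for apoptotic cells on embryonic macrophages and glia. It had 47.3 and 46.7 CPM against 11.01 and 15.6 CPM, a log2 fold change of −1.82 ± 0.25. *nAChRalpha5*, the gene around it, had 0 counts in both *bam* libraries and at most 0.187 CPM in the others.

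*NimC2* and *eater* lay at opposite ends of the range. *NimC2* had 46.2 and 40.8 CPM against 6.45 and 6.37 CPM, and its log2 fold change was −2.76 ± 0.21. Its lowest value in the *bam* libraries was 6.33 times its highest value in the others, the widest gap of the 9. *eater*, which encodes a receptor for bacteria that also holds larval hemocytes in their sessile patches, had 52.1 and 51.8 CPM against 17.9 and 31.2 CPM. The *bam* libraries were almost equal, whereas *Nipped-A*-labelled library 2 lay 1.75-fold above library 1. Its log2 fold change was −1.09 ± 0.30, and the fitted difference was 1.67-fold without *Nipped-A*-labelled library 1 and 2.78-fold without library 2.

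The secreted-type and membrane genes were contrasted directly. The log2 fold changes ran from −2.33 to −1.65 for the 5 NimB genes, with a median of −2.00, and from −2.76 to −1.09 for the 4 membrane genes, with a median of −1.80. The narrower NimB range lay wholly within the membrane range. Summed per kilobase of exon, the NimB genes made up 51.0% and 55.4% of the family's level in the *bam* libraries and 55.7% and 49.6% in the others. The groups thus overlapped in the balance of both classes. The ratio of the NimB sum to the membrane sum was 1.04 and 1.24 in the *bam* libraries and 1.26 and 0.982 in the others.

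Within the membrane class the log2 fold changes ran from −2.76 to −1.09, a wider range than the −2.33 to −1.65 of the NimB genes. These ranges carry no error. *NimC2* stood at 36.2% and 35.6% of the CPM of *NimC1* in the *bam* libraries and at 20.5% and 16.4% in the others. *eater* went the other way, from 40.8% and 45.2% of *NimC1* to 56.7% and 80.3%. Both of these ratios were separated between the groups. That of *NimB3* was also separated, narrowly and on few counts, at 4.58% and 6.32% against 2.84% and 4.46%. *NimC4* was at 37.0% and 40.7% of *NimC1* against 34.9% and 40.3%, and *NimB2* at 53.8% and 61.6% against 67.3% and 58.0%. The ratios of *NimC4* and *NimB2* to *NimC1* overlapped between the groups, as did those of *NimB1*, *NimB4* and *NimB5*. Ratios to *NimC1* were not computed over all genes.

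The order of levels per kilobase of exon was similar at its top in both groups. *NimB2* was highest, at 48.5 CPM per kilobase in the *bam* libraries and 15.2 in the others. *NimC1* (36.8 and 10.7) and *NimC4* (36.6 and 10.4) followed and overlapped each other in both groups. *NimB1* was lowest, at 6.92 and 1.73 CPM per kilobase. In the *bam* libraries *eater*, *NimC2* and *NimB3* came after *NimB4*, each overlapping the next, at 15.7, 15.4 and 14.0 CPM per kilobase. In the *Nipped-A*-labelled libraries *eater* took the fourth place at 7.43, overlapping both *NimC4* and *NimB4*. There *NimC2* stood next to last at 2.27, overlapping *NimB3* above it at 2.82.

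The 2 other Nimrod relatives with enough counts to be tested were not called. *drpr*, the engulfment receptor with an EMI domain, had 214 and 221 CPM in the *bam* libraries and 217 and 241 CPM in the *Nipped-A*-labelled ones, with a log2 fold change of 0.07 ± 0.13 (edgeR adjusted p = 0.715). *NimA*, the other EMI-domain gene, had 3.68 and 4.90 CPM against 2.44 and 3.79 CPM (−0.46 ± 0.47, adjusted p = 0.510). The groups overlapped for both genes. Of these 2 genes 0 were called by edgeR, DESeq2 or limma-voom, and 0 had an unadjusted p below 0.05 by edgeR. Such a p was seen for 3923 of the 10245 genes tested. *NimC3* had 0 counts in all 4 libraries, which allows a level of up to 0.0611 to 0.141 CPM per library (3 counts, counting error only). Its exons overlap an antisense RNA gene over 814 of their 852 bases, and that gene also had 0 counts in all 4 libraries. The strand setting of the counting is not given, so reads there could have gone uncounted. The bound may therefore not limit the level of *NimC3*.

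**Figure D2:**
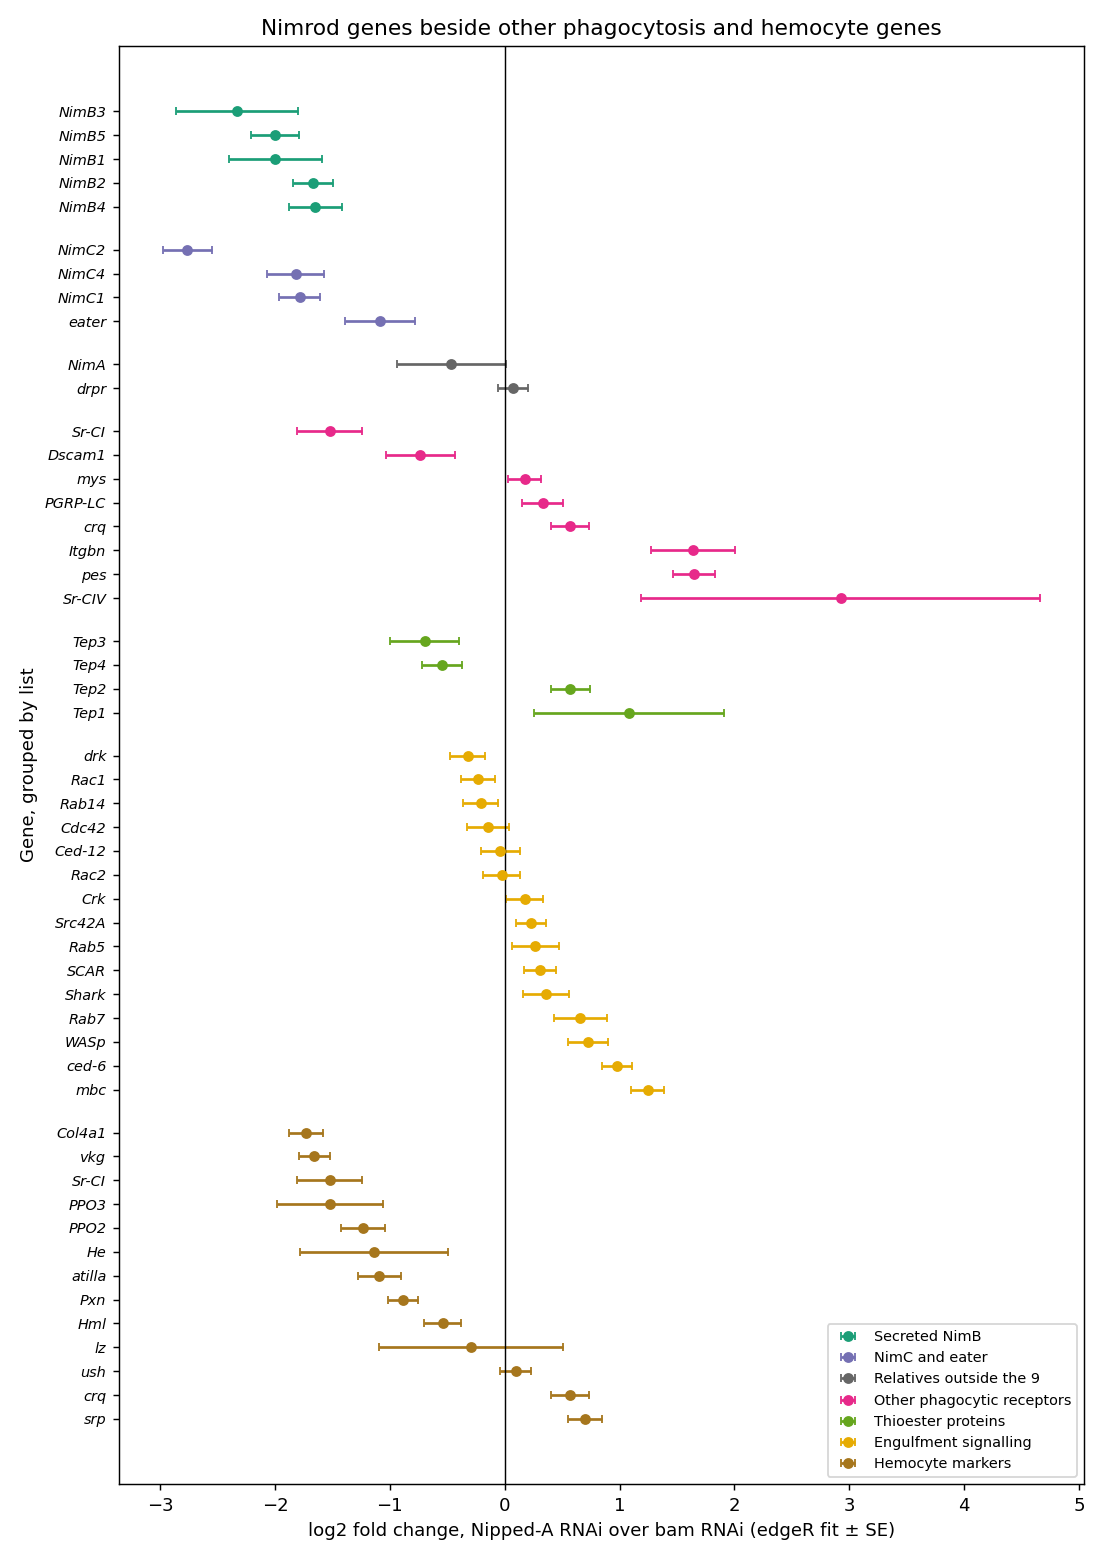
Fitted log2 fold change (edgeR, points with SE bars) of the *Nipped-A*-labelled over the *bam* libraries for the Nimrod genes and for the tested genes of 5 other lists, n = 2 libraries per group. All 9 Nimrod genes lie left of zero, from −2.76 for *NimC2* to −1.09 for *eater*, while *drpr* lies at 0.07 and the other phagocytic receptors fall on both sides.

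Other receptors of phagocytic cells moved in both directions. Of 11 listed receptors 10 were matched and 8 tested, and edgeR called 2 higher and 1 lower, against 11.3% and 8.31% of all genes tested. Their median log2 fold change was 0.45. *Sr-CI*, a scavenger receptor for bacteria on hemocytes, fell from 122 and 118 CPM to 30.5 and 53.2 CPM (−1.52 ± 0.29, edgeR adjusted p = 0.0258). *pes*, a receptor of the CD36 family that acts in uptake of mycobacteria, rose from 63.8 and 55.6 CPM to 211 and 164 CPM (1.65 ± 0.18, adjusted p = 0.0118). *Itgbn*, the integrin subunit with a role in engulfment, rose from 10.8 and 9.25 CPM to 21.6 and 41.0 CPM (1.64 ± 0.36, adjusted p = 0.0367), a call that ended under limma-voom (adjusted p = 0.0686). *mys*, the general integrin beta subunit, had 371 and 342 CPM against 369 and 435 CPM and was not called.

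Genes that act after or beside the receptors were described in the same way. Of 15 genes of engulfment signalling and phagosome maturation edgeR called 3 higher and 0 lower, with a median log2 fold change of 0.23. The shares over all genes tested were 11.3% and 8.31%. At an unadjusted edgeR p below 0.05 were 4 of the 15, and 3923 of the 10245 genes tested. DESeq2 called 4 of the 15 higher and 0 lower, and over all genes 2106 higher and 1415 lower. The adaptor gene *ced-6*, which acts with Draper, was at 183 and 190 CPM against 387 and 347 CPM and rose 1.97-fold (edgeR adjusted p = 0.0151). *mbc*, which encodes an activator of Rac, rose 2.37-fold (adjusted p = 0.0127). The actin regulator *WASp* rose 1.65-fold (adjusted p = 0.0442), and its call ended under upper-quartile scaling, with the length trend removed and with the replicate number as a block (adjusted p = 0.0844, 0.0533 and 0.0687). The phagosome gene *Rab5* was not called. Of 6 listed thioester protein genes, relatives of complement, 4 were matched and tested. Of those 0 were called by edgeR (2 at an unadjusted p below 0.05; DESeq2 called 1 higher and 1 lower; limma-voom 0). *Tep4*, the most abundant, had 1511 and 1419 CPM against 861 and 1144 CPM (−0.55 ± 0.18, edgeR adjusted p = 0.0827). DESeq2 and upper-quartile scaling called it lower (adjusted p = 0.0195 and 0.0443).

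Hemocyte markers were lower in the same libraries, in part. Of 14 listed 13 were matched and tested. edgeR called 6 lower and 1 higher, against 8.31% and 11.3% of all genes tested, with a median log2 fold change of −1.09. DESeq2 called 8 of the 13 lower and 2 higher, and over all 10245 genes tested 1415 lower and 2106 higher. The list shares *Sr-CI* and *crq* with the receptors, and its collagen genes are also made by other tissues. Of the 13 markers 10 had a log2 fold change below 0 and 3 above. *crq* was higher, at 308 and 279 CPM against 384 and 486 CPM, and was not called (0.57 ± 0.16, edgeR adjusted p = 0.0670). DESeq2 called *crq* higher (adjusted p = 0.00271). *ush* overlapped between the groups (0.10 ± 0.14). The collagen IV genes *Col4a1* (3.32-fold) and *vkg* (3.15-fold) fell the most, each at adjusted p = 0.00925. *PPO2*, the prophenoloxidase of crystal cells, fell 2.35-fold from 147 and 150 CPM to 53.0 and 73.3 CPM (adjusted p = 0.0185). *Pxn*, the peroxidasin gene widely used to mark hemocytes, fell 1.85-fold from 2554 and 2327 CPM to 1346 and 1293 CPM (adjusted p = 0.0167). *Sr-CI* and *atilla* were also among the falls. *Hml*, the hemolectin gene used to mark plasmatocytes, had 663 and 556 CPM against 383 and 455 CPM and was not called (−0.54 ± 0.16, adjusted p = 0.0718). *Hml* was called lower under upper-quartile scaling (adjusted p = 0.0339), with the length trend removed (0.0362) and by DESeq2 (0.0128). Its log2 fold change was −0.43 without *Nipped-A*-labelled library 1 and −0.60 without library 2. *srp*, the GATA factor of blood cells and fat body, rose 1.62-fold (adjusted p = 0.0331), a call that ended under upper-quartile scaling (adjusted p = 0.0565) and with the length trend removed (adjusted p = 0.0648). The summed level of the 13 markers was 7948 to 8960 CPM in the *bam* libraries and 3824 to 4078 CPM in the others, and 0 of them were at 0 in every library. This lower sum came mainly from *Col4a1* (3044 and 2622 CPM against 820 and 889 CPM), *vkg* (1876 and 1661 CPM against 553 and 570 CPM) and *Pxn*. The part of hemocyte content in the Nimrod values was not tested.

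The ratio of Nimrod transcripts to hemocyte markers within a library depended on the marker. Against 10 of the 13 markers the ratio of *NimC1* was lower in both *Nipped-A*-labelled libraries. It overlapped between the groups against *Col4a1*, *vkg* and *Sr-CI*, which had the largest falls of the 13. The 10 include *srp* and *crq*, which were higher in those libraries, and *ush*, which overlapped. They also include *lz*, on 10 to 22 counts, and *He*, on 31 to 90 counts. For *He* the lowest *bam* ratio was 2989% and the highest of the others 2979%. *NimC1* was at 4.19% and 4.37% of the CPM of *Col4a1* in the *bam* libraries and at 3.85% and 4.37% in the others. Against *Sr-CI* it was at 104% and 97.4%, and at 103% and 73.0% in the others. Of the 9 Nimrod genes, 1 had a lower ratio to *Col4a1* without overlap and 1 a higher one, and 7 overlapped. *Hml* was among the markers with the smaller differences between the groups. *NimC1* stood at 19.2% and 20.6% of the CPM of *Hml* in the *bam* libraries and at 8.23% and 8.53% in the others. *NimB2* stood at 10.3% and 12.7% against 5.53% and 4.95%, and *NimC2* at 6.97% and 7.35% against 1.68% and 1.40%. *eater* had the narrowest difference, at 7.85% and 9.32% against 4.66% and 6.86%. All 9 ratios to *Hml* were separated between the groups. Against *Pxn*, 8 ratios were separated, and that of *eater* overlapped, at 2.04% and 2.23% against 1.33% and 2.41%. *Hml* and *Pxn* fell 1.45-fold and 1.85-fold, less than any of the 9 genes, which were chosen with their differences known. Lower ratios therefore restate those differences in part. Ratios to markers were not computed over all genes, so these counts have no background share beside them.

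**Figure D3:**
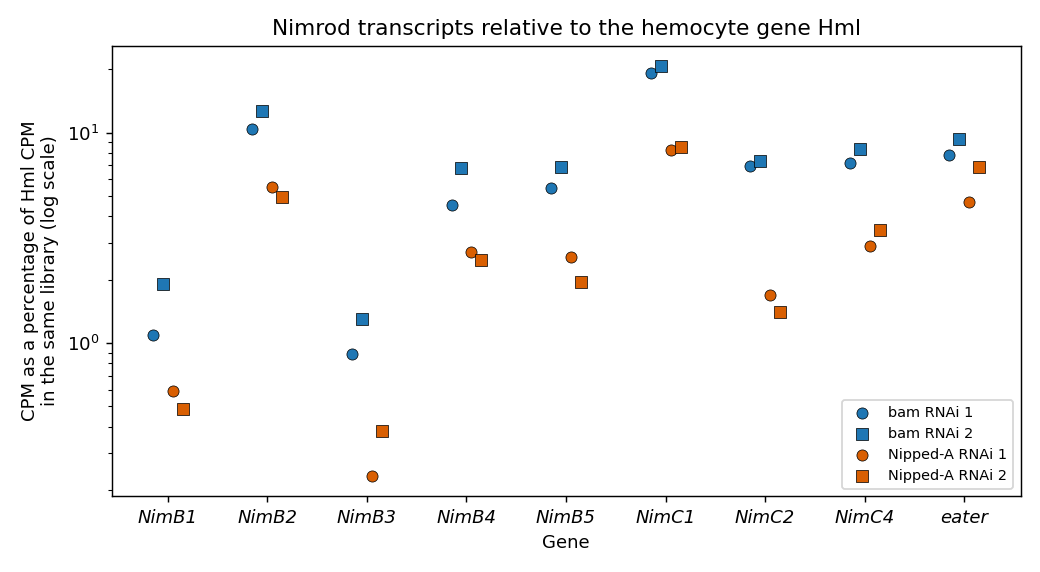
CPM of each Nimrod transcript as a percentage of the CPM of the hemocyte gene *Hml* in the same library (log scale); each point is one library. Both orange points (*Nipped-A*-labelled) lie below both blue points (*bam*) for all 9 genes, and *eater* has the narrowest gap, with 6.86% in *Nipped-A*-labelled library 2 and 7.85% in *bam* library 1. *Hml* differed less between the groups than any of the 9 genes, which were chosen with their levels known.

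The other genes of the cluster differed in direction among themselves. Of 13 other annotated genes that overlap the cluster 12 were matched and 5 were tested. Their median log2 fold change was −0.88, and edgeR called 2 higher and 0 lower, against 11.3% and 8.31% of all genes tested. At an unadjusted edgeR p below 0.05 were 3 of the 5, and 3923 of the 10245 genes tested. DESeq2 called 2 of the 5 higher and 0 lower, and over all genes 2106 higher and 1415 lower. *bgm*, an acyl-CoA synthetase gene, rose from 49.0 and 44.2 CPM to 182 and 105 CPM (1.63 ± 0.28, adjusted p = 0.0223). *CG18095* rose from 0.693 and 0.767 CPM to 3.15 and 23.8 CPM (adjusted p = 0.0467). Its log2 fold change was 4.20, and without *Nipped-A*-labelled library 2 it was 2.17 and the call ended (adjusted p = 0.0811). The call also ended under robust moderation and limma-voom (adjusted p = 0.0686 and 0.285) and with the length trend removed. *He*, *Cyp28a5* and *rk*, which lie among or beside *NimB5*, *NimC1* and *NimC2*, were not called, at −1.14 ± 0.65, −0.88 ± 0.58 and −1.04 ± 0.36. Without *Nipped-A*-labelled library 2, *Cyp28a5* moved to −1.93 and *rk* to −1.10. Without library 1 *Cyp28a5* stood at −0.25, and without *bam* library 2 *He* stood at −0.43. *He* and *rk* are the genes whose exons overlap *NimB5* and *NimC2* on the opposite strand.

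**Figure D4:**
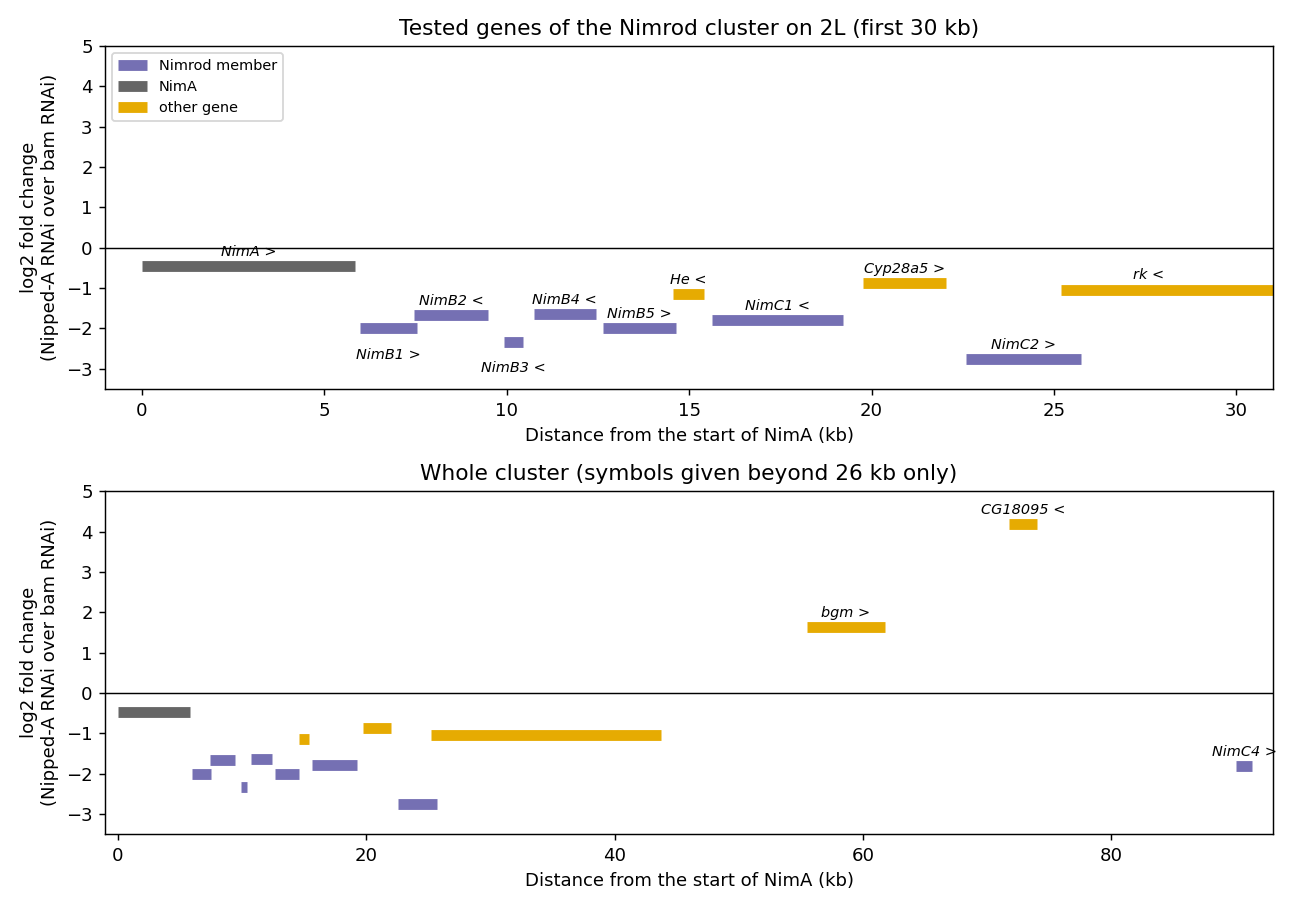
Tested genes of the Nimrod cluster on 2L as bars from gene start to gene end (distance from the start of *NimA* in kb; > and < mark the strand) at their fitted log2 fold change, *Nipped-A*-labelled over *bam* libraries. The 8 Nimrod members lie between −2.76 and −1.65, *NimA* lies at −0.46, and *bgm* and *CG18095* lie above zero.

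The pattern across the 4 libraries was compared over 10031 tested genes, by the Euclidean distance of mean-centred log2 CPM. With 4 libraries in 2 groups this distance mainly reflects the size of the group difference. The genes nearest to *NimC1* were *Vha36-3* at 0.0314, *Pvf2* at 0.0679 and *Snmp1* at 0.0848. Among the other members *NimC4* came nearest to *NimC1*, at rank 19 with a distance of 0.180. *NimB2* followed at rank 43, and *NimC2* was farthest, at rank 935. The genes nearest to *NimB2* were *Spn88Ea* at 0.0597, *Atx-1* at 0.0782 and *Gr63a* at 0.0837, and *NimB4* was the nearest member, at rank 37. *Atx-1* and *Gr63a* had below 2 CPM in every library, so their positions rest on few counts.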

How the data were processed

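For each library the authors deposited gene-level raw counts. HISAT2 2.1.0, featureCounts 1.6.0.4, edgeR 3.16.5 and build dm6 are named in the submitters' processing notes; libraries were directional, per the labels' protocols. Which annotation was counted, with what strand setting and how multi-mapping reads were handled is not given in the sources used here. Symbols and positions came from Ensembl gene models on dm6 coordinates, which matched 16647 of 17023 identifiers. No sequences were used here.

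Low counts were removed with filterByExpr and libraries scaled with TMM (factors 0.980 to 1.03). The groups were compared with the edgeR 4.0.16 quasi-likelihood test (R 4.3.3, two-sided), p-values being adjusted by Benjamini-Hochberg over the 10245 genes kept, with calls made below 0.05. The SE of a log2 fold change is its size over the root of F. Levels per kilobase use the union of annotated exons. Steps were tested on simulated counts. Alternatives were DESeq2 1.42.0, limma 3.58.1 (voom), other scaling and filters, robust moderation, removal of a loess trend of fold change on exon length, a replicate block and leaving out single libraries.

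The members and lists were chosen with earlier results of these data known. Named genes were the 9 members, their relatives and both targets. From each list the rule took up to 4 called genes by smallest adjusted p and the most abundant gene not called. Of the genes this gave for the gut, muscle sheath, fat body, follicle cell and germ cell lists, only some are named above. For the cluster, called neighbours and the most abundant neighbour not called were named. For *NimC1* and the most abundant NimB gene the 3 genes nearest in pattern were named. *tj*, *atilla*, *srp*, *crq*, *ush*, *lz*, *Yp1*, *nAChRalpha5*, *He* and *rk* were named beyond these rules, after their values were seen. Without a match by symbol were *scb*, *Tep5*, *Mcr*, *PPO1*, *wupA*, *br*, *vas* and *hll*, which were not analysed here.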

Additional observations from a re-analysis of the deposited data

How the results depend on the processing

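All 126 recomputed log2 fold changes of the 9 Nimrod genes (14 alternatives each) stayed below 0. They ranged from −2.97 to −2.66 for *NimC2*, from −1.99 to −1.65 for *NimC1*, from −1.88 to −1.62 for *NimB2* and from −1.47 to −0.74 for *eater*. The median over the 9 was −2.03 under upper-quartile scaling (where all genes had a median of −0.21) and −1.88 to −1.65 with each library left out. In the alternatives that kept all 4 libraries, 8 or 9 of the 9 passed the adjusted threshold as lower. Over all genes those alternatives called from 689 lower with the replicate block to 1556 lower under upper-quartile scaling. The 9 were chosen with these same values known, so such counts are a description and not a test. A fit without 1 library leaves a single library in its group, and the calls over the whole table depended on which library was left out. Over all genes, 2106 were called higher and 1415 lower by DESeq2, and 1556 lower under upper-quartile scaling. With each library left out, 0 to 2511 genes were called higher and 0 to 1771 lower.

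With each library left out, calls numbered 0 to 4 higher and 0 to 2 lower for the other phagocytic receptors, 0 to 1 and 0 to 2 for thioester proteins, 0 to 6 and 0 to 1 for engulfment signalling, 0 to 2 and 0 to 7 for hemocyte markers, and 0 to 2 and 0 to 2 for the cluster neighbours. limma-voom called 1 other receptor and 1 neighbour higher. Upper-quartile scaling called 1 thioester protein lower and 0 hemocyte markers higher. DESeq2 called 1 thioester protein higher and 1 lower, and 2 hemocyte markers higher. Hemocyte markers called higher numbered 2 without a count filter and 0 with the length trend removed; 1 neighbour was called higher with the length trend removed and 1 under robust moderation. *Lsp2*, a fat body gene not called in the main setting, went from 0.15 to −0.80 without *Nipped-A*-labelled library 1 and to 0.78 without library 2. The cause of these changes was not tested.

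With the replicate number as a block (replicate block) the median over the 9 was −1.84 and 1124 genes were called higher and 689 lower. The labels do not pair the libraries, and same-numbered libraries deviated from their group means with a correlation of −0.0756 across genes. Depth limits *NimB3* and *NimB1* most, with 37 and 47 counts in *Nipped-A*-labelled library 2.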
